A study of Mus musculus with 19 samples.

Results

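The genes described here are 37 markers of neural progenitors, neurons, astrocytes, oligodendrocytes and neuroendocrine cells, chosen by name out of the 23284 genes in each of 2 deposited RNA-seq tables. All 37 had a row in both tables, and Map2 was found there under its older symbol Mtap2. They fell into 7 classes by what their products are known to do, with 4 neural progenitor factors, 9 genes of the neuronal cytoskeleton or of neuronal RNA binding, 5 of the synaptic vesicle, 5 of neurotransmitter synthesis or transport, 5 of astrocytes, 6 of oligodendrocytes and myelin, and 3 of neuroendocrine cells.

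The study asked whether mouse fibroblasts can be turned into prostate tissue. Fibroblasts were infected with retroviruses that carry the human reprogramming factors OCT4, SOX2, KLF4 and c-MYC and were moved to epithelial medium, which gave induced epithelial (iEpt) cells. Some of these were also given further lentiviral transcription factors, mouse Foxa1 among them (iEpt+NAF). The cells were mixed with urogenital mesenchyme of rat embryos and grown for 6 weeks as grafts under the kidney capsule of male nude mice that carried testosterone pellets. The sample labels place 7 libraries in 1 renal graft group without naming the added factors. By the study's own lists FS002, FS003, FS005, FS007 and FS008, which share the first table, are iEpt+NAF grafts, and FS022 and FS023, the 2 grafts of the second table, are by elimination iEpt only grafts. The first table also holds 6 libraries of wild-type prostate from mice of 6 weeks (FS009 to FS014) and 6 of mouse embryonic fibroblasts, or MEFs, from embryos at E13.5 (FS015 to FS020) that carry a heterozygous LacZ allele. Littermates of both sexes were pooled for such cultures, which were sorted against markers of blood, endothelium, macrophages and epithelium. The strain of all groups is given as C57BL/6. A graft library holds RNA of the induced cells together with that of the rat mesenchyme and of host tissue, so these sources cannot be told apart, nor can fewer cells of a type be told from less RNA per cell.

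Values are DESeq-normalized read counts on a log2 scale, and differences between values are log2 fold changes. Between 16766246 and 26150563 reads on genes stood behind each library of the first table, and 6629305 and 9661573 behind FS022 and FS023. A gene with 3 reads had a log2 value of 1.68 to 2.34 in the first table, 3.12 in FS022 and 2.70 in FS023. Values at or below that level are read here as too low to measure, which covers counting error only. The 2 tables were normalized separately, and the grafts of the second entered no test. The MEFs stood apart from each other. They formed 3 close pairs, FS015 with FS020, FS016 with FS019 and FS017 with FS018, whose members differed by a chi-square of 5.46 to 31.6 per gene against 303 to 471 between other MEF pairs. Prostate transcripts were present in FS015 to FS018, where Pbsn, a prostate secretory gene, was at 6.59 to 8.55 against 0.02 and 0.35 in FS019 and FS020. Nothing in the labels says that the samples of a group came from separate animals or cultures, and the p-values then measure only the spread between these samples.

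Neural tissue arises from progenitors marked by transcription factors such as Pax6 and Otx2. Neurons that leave the cell cycle switch on doublecortin and neuronal tubulin, then neurofilaments, and later the proteins that load and release synaptic vesicles. Astrocytes and oligodendrocytes appear after neurons, and myelin genes come on as oligodendrocytes mature. The prostate has neuroendocrine cells and nerve fibres with their Schwann cells, whereas its epithelium and stroma lack neurons, astrocytes and oligodendrocytes, and grafts of cells that have passed through reprogramming can form tissues of several germ layers.

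The 7 grafts differed widely in these genes. In FS002, FS003, FS005 and FS023 all 37 members were above the value of 3 reads, in FS022 35 were, in FS007 29 and in FS008 26. Prostate libraries had 19 to 26 and MEFs 15 to 22. The share of all genes above that value in each library is not given here. The median log2 value over the members was 8.35 in FS002, 8.20 in FS003, 8.13 in FS005, 4.53 in FS007, 3.77 in FS008, 6.14 in FS022 and 11.96 in FS023, against 2.02 to 3.35 in prostate and 0.99 to 2.68 in MEFs. FS023 stood highest and FS008 lowest of the grafts, with FS007 close to FS008.

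**Figure D1:**
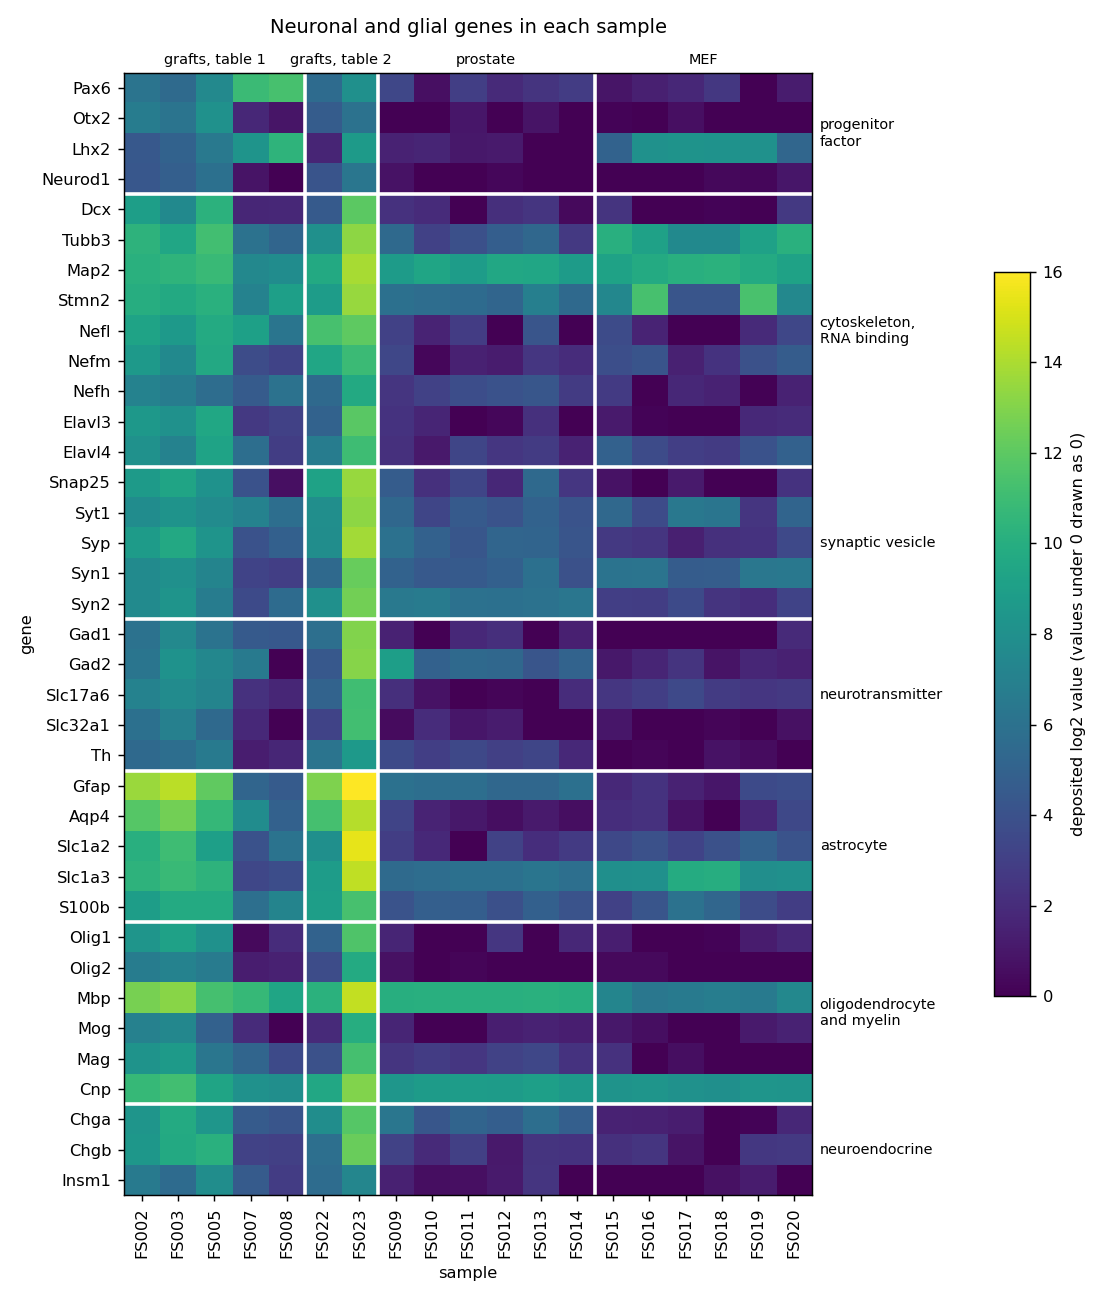
Deposited log2 value (colour, from 0 to 16, with values under 0 drawn as 0) of the 37 genes (rows, by class) in the 19 samples (columns, by group and table). The column of FS023 is the brightest for 33 of the genes among the 7 grafts, and FS007 and FS008 are dark outside a few rows such as Pax6 and Lhx2.

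Gfap, which encodes the intermediate filament of astrocytes, and Syp, which encodes the synaptic vesicle protein synaptophysin, split the grafts in the same way. Gfap (chromosome 11 from 102748650 to 102762226 in mm9) was at a log2 value of 13.62 in FS002, 14.34 in FS003, 12.08 in FS005, 5.23 in FS007 and 4.60 in FS008. In the second table it was at 12.88 in FS022 and 16.08 in FS023. Prostate had 5.32 to 5.94 and MEFs had 0.99 to 3.80, so FS007 and FS008 lay below every prostate library while the other 5 grafts lay far above. Syp (chromosome X from 7215597 to 7230382) was at 8.76, 9.64, 8.28, 4.03 and 4.91 in the same 5 grafts of the first table, and at 7.84 in FS022 and 13.77 in FS023. Its prostate values, 4.20 to 5.96, contained FS008 and lay above FS007, and its MEF values were 1.41 to 3.50.

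Most members followed this split. Gfap and Syp, by which it was drawn, are counted among them, so their own order adds nothing to it. FS007 and FS008 were both below FS002, FS003 and FS005 for 32 of the 37 members, an order that 29.2% of the 16607 genes whose linear mean reached 10 in these 5 grafts also had. The opposite order held for 2 members, Pax6 and Lhx2, and for 24.6% of all those genes. Nefl, Nefh and Gad2 followed neither order. The split rests on the values themselves, and no test was made between the grafts on either side of it.

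**Figure D2:**
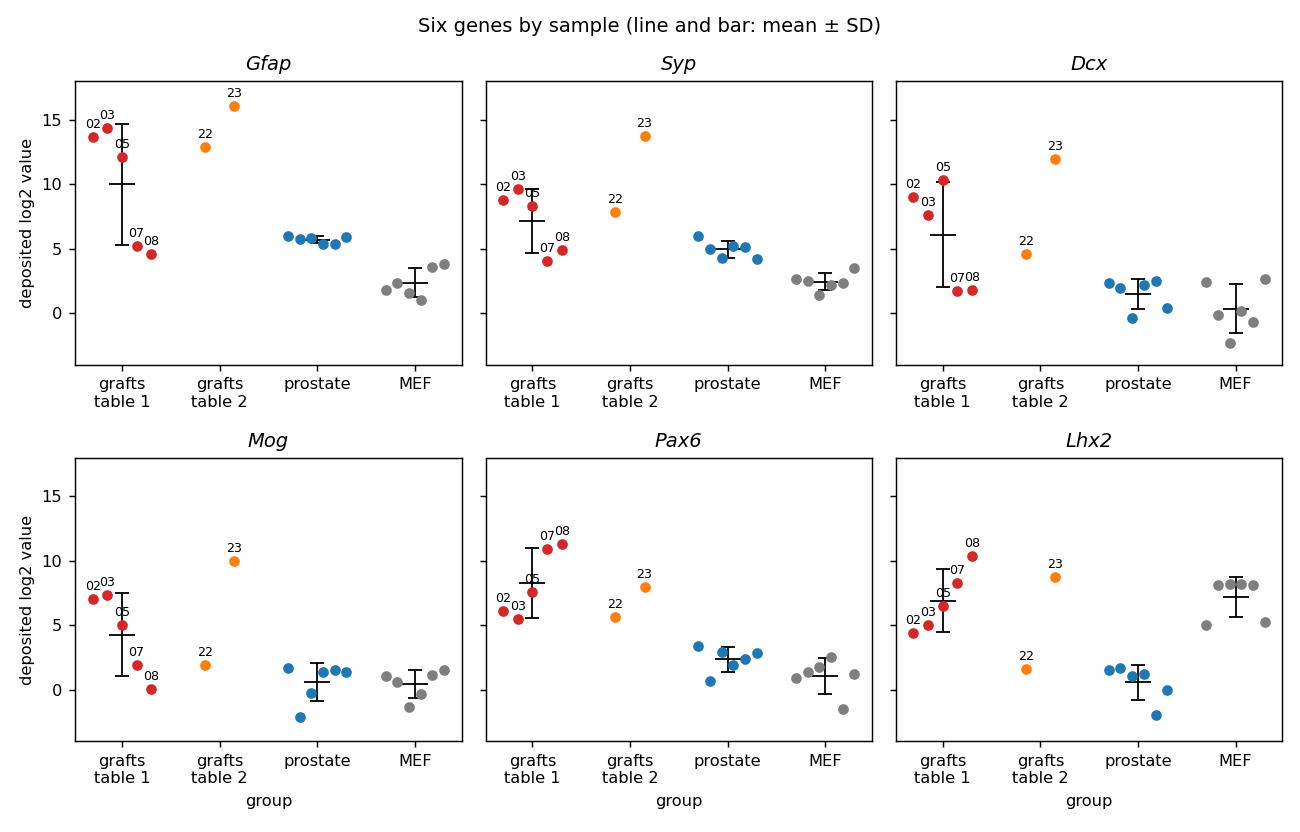
Deposited log2 value of 6 genes in each sample, with 1 point per library, grafts marked by the last 2 digits of their names, and mean ± SD drawn for the groups of the first table. FS007 and FS008 lie below FS002, FS003 and FS005 for Gfap, Syp, Dcx and Mog and above them for Pax6 and Lhx2.

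The grafts of the first table were compared with MEFs, the cells that the study started from, by limma over the 16121 genes whose linear mean reached 10, and a gene passed at an adjusted p under 0.05 and a log2 fold change of at least 1 in size. Of the 37 members 29 were higher in the grafts (n = 5) than in MEFs (n = 6), 0 were lower and 8 did not pass, where 29.9% of all genes tested were higher and 12% lower. The median log2 fold change was 4.63 over the members and 0.262 over all genes tested. For 24 members only the grafts were over the filter on low values, which ties their presence in the test to a high graft level, and of the 13 that were over it in both groups 6 were higher. In 11 members no MEF library was above the value of 3 reads, and with those set at the bound that the value of 3 reads gives the median was 3.51. The count changed with the MEF libraries used. Without FS015 to FS018 the count was 11 of 37 (Pax6, Nefl, Nefh, Syt1, Gad1, Aqp4, S100b, Mbp, Mag, Chga and Insm1), where 3132 of 16434 genes were higher. That fit keeps only FS019 and FS020 as MEFs and so has less power, and a call lost in it need not mean a smaller difference. Among the lost calls the log2 fold change rose for some, as for Otx2 from 5.45 to 6.37. It fell for others, as for Elavl3 from 6.12 to 4.49. With each close pair of MEFs averaged to 1 sample it was 19, and with quantile normalization it was also 19. That scaling moved the median over all genes from 0.262 to -0.20 and turned the split of all calls from 4815 higher and 1942 lower to 2828 higher and 3830 lower.

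Against prostate, 26 of the 37 members were higher in the grafts (n = 5 and n = 6), 0 were lower and 11 did not pass, where 23% of the 16353 genes tested were higher and 10.3% lower. The median log2 fold change was 3.88 over the members and 0.11 over all genes tested. Here 21 members were over the filter only in the grafts, and 7 of the 16 over it in both groups were higher. With the 6 members that no prostate library showed above 3 reads set at their bound, the median was 3.40. Leaving out 1 graft at a time gave 20 to 30, with 20 when FS002, FS003 or FS005 was left out and 30 when FS007 or FS008 was. Dcx, Gfap, Olig1, Mbp and Mog passed with all 5 grafts and did not pass without FS002, without FS003 or without FS005. Quantile normalization left 23 members higher while it moved the median over all genes to -0.14 and the split of all calls from 3757 higher and 1683 lower to 2455 and 3176. This comparison and the one with MEFs share the same 5 graft libraries.

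**Figure D3:**
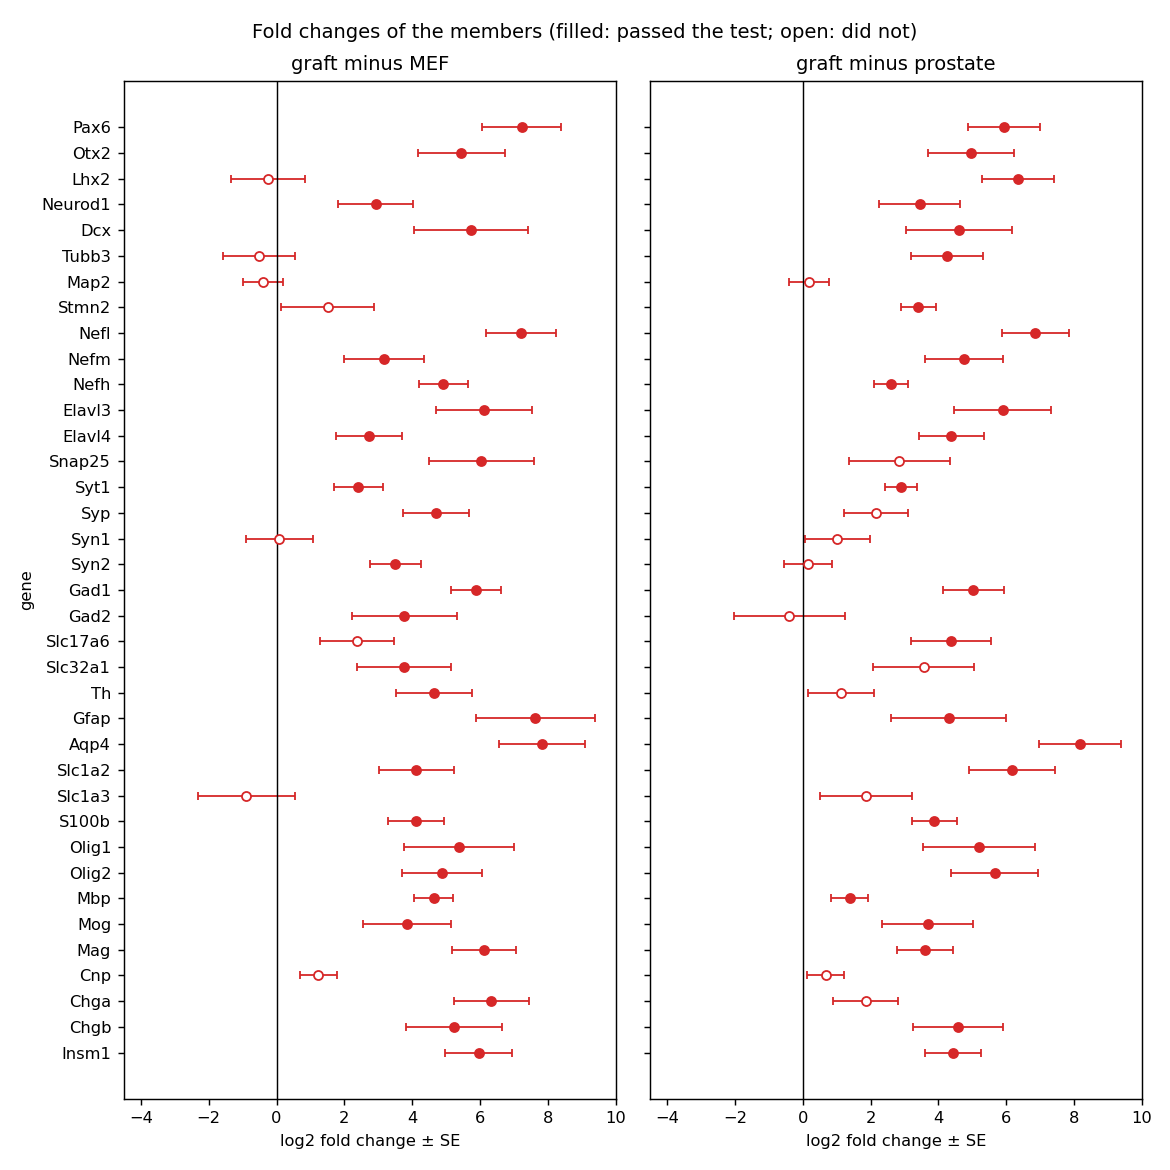
Log2 fold change ± SE (limma) of each of the 37 genes in grafts of the first table (n = 5) against MEFs (n = 6, left) and against prostate (n = 6, right), with filled points for genes that passed. Against MEFs 29 points are filled and against prostate 26, and Lhx2, Tubb3, Map2 and Slc1a3 lie to the left of 0 in the left panel only.

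Among the progenitor factors, Pax6 and Lhx2 ran against the other members. Pax6, a paired-box and homeodomain factor of neural progenitors and the eye, lies on chromosome 2 from 105509053 to 105543317. It was at a log2 value of 6.14 in FS002, 5.52 in FS003, 7.54 in FS005, 10.92 in FS007, 11.34 in FS008, 5.61 in FS022 and 8.0 in FS023. FS007 and FS008, the grafts with the least Gfap, had the most Pax6. All 5 grafts of the first table lay above the prostate values of 0.69 to 3.42 and the MEF values of -1.50 to 2.57. The log2 fold change was 7.22 ± 1.15 (SE) over MEFs (limma, adjusted p = 2.27e-04) and 5.93 ± 1.06 over prostate (limma, adjusted p = 6.84e-04). Exons of Pax6 share 5542 bases with exons of Elp4 on the opposite strand, and the library kit does not mark strand. Elp4 was nearly level over the first table, at 7.88 to 8.13 in its grafts and 8.07 to 8.44 in prostate.

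Lhx2, a LIM-homeobox factor of forebrain and eye progenitors, was at 4.41, 5.02, 6.49, 8.28 and 10.38 in FS002, FS003, FS005, FS007 and FS008, and at 1.63 in FS022 and 8.72 in FS023. The fitted log2 fold change over prostate was 6.34 ± 1.07 (limma, adjusted p = 4.71e-04). No prostate library had Lhx2 above 3 reads. With prostate taken at its value of 3 reads the mean of the grafts of the first table was at least 27.1-fold higher. MEFs had it at 5.04 to 8.22, inside the graft range, and the difference from MEFs was -0.24 ± 1.09 (limma, adjusted p = 0.853).

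Otx2, a homeobox factor of the anterior brain, had the order of the majority. It was at 6.73, 6.13 and 8.11 in FS002, FS003 and FS005, at 4.67 in FS022 and at 6.05 in FS023, but at 1.79 and 0.93 in FS007 and FS008, where it was no higher than 3 reads. Neurod1, a factor of neuronal and endocrine differentiation, was at 4.36, 4.87 and 5.90 in FS002, FS003 and FS005 and at 0.85 and -0.48 in FS007 and FS008. FS022 had it at 4.13 and FS023 at 6.26. Both passed as higher than MEFs (limma, adjusted p = 0.00328 for Otx2 and 0.0355 for Neurod1) and than prostate (0.00662 and 0.0273), groups in which no library showed either gene above 3 reads. With MEFs taken at their value of 3 reads, the graft mean was 6.75-fold higher for Otx2 and 2.17-fold for Neurod1. FS007 and FS008, under 3 reads for both genes, entered these means at their deposited values. Without FS015 to FS018 neither passed against MEFs, with an adjusted p of 0.0522 for Otx2 and of 0.326 for Neurod1.

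A list of 10 other progenitor genes was followed beside these 4. Against prostate 8 were higher and 0 lower in the grafts, and against MEFs 4 were higher and 0 lower. Sox1, a neural progenitor factor, was at 7.33, 5.96, 8.41, 6.39 and 5.72 in the grafts of the first table and at or below 1.89 in all 12 prostate and MEF libraries. In FS007 and FS008 it was above 3 reads, as were 7 and 6 of the 10 genes. Fabp7, a fatty acid-binding protein of radial glia, was at 10.39, 10.06, 10.44, 2.66 and 5.35, and Nes, the progenitor intermediate filament nestin, at 10.78, 10.12, 11.38, 6.30 and 8.01, so both were lowest in FS007 and FS008. Hes5 and Pou3f2 were below 3 reads in these 2 grafts and above it in FS002, FS003 and FS005. Neurog2 reached 8.46 in FS008, its highest value of any library, and was at 3.55 in FS007. Of 8 genes of the retina and its pigment epithelium none was over the filter on low values in any comparison, none of which includes FS022 or FS023. Above the value of 3 reads were 6 of the 8 in FS002, 5 in FS003, 6 in FS005, 1 each in FS007 and FS008, 2 in FS022 and 4 in FS023. Prostate had 1 to 2 and MEFs 0 to 2. In FS023 Rlbp1 was at 8.92 and Six6 at 7.57, while Crx was below the value of 3 reads in all 7 grafts.

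Of the 9 genes of the neuronal cytoskeleton and RNA binding, 6 were higher than in MEFs and 8 than in prostate. Dcx encodes the microtubule-binding protein doublecortin of immature neurons. Its log2 values were 9.0, 7.61 and 10.29 in FS002, FS003 and FS005, 4.55 in FS022 and 11.96 in FS023. FS007 and FS008 had 1.75 and 1.76, inside the prostate range of -0.39 to 2.47 and the MEF range of -2.34 to 2.66. The mean over the 5 grafts was 6.08 ± 4.06 (SD), with a log2 fold change of 4.60 ± 1.56 over prostate (limma, adjusted p = 0.0258), and an adjusted p of 0.0662, 0.0578 and 0.0649 without FS002, FS003 and FS005. Elavl3 and Elavl4, neuronal RNA-binding proteins of the Hu family, showed the same split, with Elavl3 at 8.56, 8.09 and 9.51 against 2.63 and 3.11, and at 5.02 in FS022 and 11.91 in FS023. Elavl3 was higher than in prostate by 5.89 ± 1.44 (limma, adjusted p = 0.00481) with no overlap.

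Tubb3, Map2 and Stmn2 are less specific to neurons in these samples. Tubb3, neuronal class III beta-tubulin, was at 10.32, 9.47, 11.14, 6.06 and 5.25 in the grafts of the first table and at 13.28 in FS023. MEFs had it at 7.58 to 10.18 and prostate at 2.64 to 5.44, so it passed against prostate (4.24 ± 1.06, limma, adjusted p = 0.00559) and not against MEFs (-0.51 ± 1.06, adjusted p = 0.688). Map2, a microtubule-associated protein of dendrites, had 8.75 to 9.58 in prostate and 9.20 to 10.20 in MEFs, and FS007 and FS008 lay below both groups at 7.44 and 7.80. FS002, FS003 and FS005, at 10.16, 10.38 and 10.81, lay above every prostate library, and FS003 and FS005 also above every MEF library. Map2 passed in neither comparison and was at 13.92 in FS023. Stmn2, a growth cone protein, differed among the MEF pairs by more than among the grafts, at 11.32 and 11.42 in FS016 and FS019, 7.38 and 7.50 in FS015 and FS020, and 4.23 in both FS017 and FS018. In the grafts of the first table it was at 7.12 to 10.14, above every prostate library (5.20 to 6.89, 3.40 ± 0.51, limma, adjusted p = 2.15e-04).

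The light, medium and heavy neurofilaments did not move together. Nefl was at 9.29, 8.59, 9.79, 9.08 and 6.19 in the grafts of the first table, so FS007, low in most members, was at the level of FS002. Nefm was at 8.66, 7.59 and 9.65 in FS002, FS003 and FS005 and at 3.72 and 3.24 in FS007 and FS008. Nefh was at 7.08, 6.72, 5.69, 4.56 and 6.05, a narrow range with FS008 inside it. FS022 and FS023 had Nefl at 11.34 and 12.06 and Nefm at 9.48 and 10.92. Over MEFs the log2 fold changes were 7.20 ± 1.04 for Nefl (limma, adjusted p = 1.12e-04), 3.16 ± 1.18 for Nefm (0.0343) and 4.92 ± 0.71 for Nefh (1.14e-04), and all 3 were also higher than in prostate. The Nefm call against MEFs was lost without FS002, FS003 or FS005 (adjusted p of 0.0855, 0.0737 and 0.0877) and with quantile normalization, while the call against prostate was lost under 0 of 13 alternatives. Nefl and Nefm lie on opposite strands of chromosome 14 and share 1108 bases of exon in the annotation, so that reads from this stretch could come from either gene.

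The synaptic vesicle genes separated the grafts from prostate least. All 5 were above 3 reads in 5 of the 6 prostate libraries, and only Syt1, the calcium sensor of vesicle release, passed against prostate. Syt1 was at 7.79, 8.20, 7.71, 7.07 and 5.77 in the grafts of the first table against 3.36 to 5.35 in prostate (2.90 ± 0.48, limma, adjusted p = 3.89e-04), with no overlap. Syp had a log2 fold change of 2.16 ± 0.94 over prostate (limma, adjusted p = 0.0704) and passed when FS007 or FS008 was left out. Against MEFs it was higher by 4.69 ± 0.97 (limma, adjusted p = 0.00136), and without FS015 to FS018 its adjusted p was 0.0825. Snap25, a SNARE of vesicle fusion, was at 8.74, 9.37, 8.13, 4.01 and 0.65, from well above prostate (1.76 to 5.49) to below its lowest library, and was at 9.22 in FS022 and 13.52 in FS023. It was 6.04 ± 1.54 over MEFs (limma, adjusted p = 0.00506) and 2.85 ± 1.48 over prostate (adjusted p = 0.121), and without FS015 to FS018 the adjusted p against MEFs was 0.141.

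Both synapsins, which tether synaptic vesicles, differed little in mean from a control group, with the single grafts on either side of it. Syn2 was at 7.66, 8.31, 6.74, 3.57 and 5.59 in grafts of the first table and at 5.92 to 6.63 in prostate. The mean difference was 0.15 ± 0.70 (limma, adjusted p = 0.864). FS002, FS003 and FS005 lay above every prostate library and FS007 and FS008 below every one. Syn1 was at 7.68, 8.05, 7.21, 3.20 and 2.95. MEFs had it at 4.67 to 6.41 (0.09 ± 0.98, limma, adjusted p = 0.942) and prostate at 3.96 to 5.94 (1.02 ± 0.96, adjusted p = 0.386). Again FS002, FS003 and FS005 lay above all libraries of both groups, and FS007 and FS008 below all of them. In FS023 Syn2 and Syn1 stood at 12.62 and 12.30, and in FS022 at 8.03 and 5.47.

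Many neuronal genes, Syn1 among them, carry the RE1 element, on which the repressor REST assembles in cells that are not neurons. To show where this element lies for the members, the promoters of 28 members (RefSeq, GRCm38.p6, 300 bases each, from 250 before to 50 after the start of transcription) were searched on both strands for the half-sites AGCACC and GGACAG with 2 bases of any kind between them, with at most 1 of the 12 letters different. Matches were found in 3 members, Gad2, Syn1 and Slc17a6, and in 0.411% of the 27025 genes with a promoter there. The 12 letters searched are in capitals, with their neighbours in lower case and the strand of the match read 5′ to 3′. The Gad2 match (chr2:22622159-22622182, plus strand) holds all 12 letters, as do promoters of 16 genes in all, the Syn1 match (chrX:20921129-20921152, minus strand) and the Slc17a6 match (chr7:51621859-51621879, minus strand) differ in 1.
Gad2: gtggtAGCACCctGGACAGcgcgt
Syn1: gattcAGCACCgcGGTCAGagcct
Slc17a6: tcAGGACCacGGACAGaggaa
These letters describe the promoters and show no binding, and 9 members had no entry in the promoter table. Rest itself was at a log2 value of 8.75 to 9.25 in the grafts of the first table, 8.40 in FS022, 7.63 in FS023, 8.22 to 8.65 in prostate and 10.19 to 10.41 in MEFs. It was lower in the grafts than in MEFs (log2 fold change -1.34 ± 0.11, limma, adjusted p = 1.72e-06). The levels of Rest in FS007 and FS008, 9.21 and 8.81, lay within those of FS002, FS003 and FS005. FS023 had the lowest Rest of the 19 libraries. A search of 300 bases with at most 1 letter different does not show that a member lacks the element. The part of Rest in the values of the members was not tested.

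Of the 5 neurotransmitter genes, 4 were higher than in MEFs and 2 than in prostate. Gad1 and Gad2 encode the 2 glutamate decarboxylases that make GABA. Gad1 was at 6.06, 7.54, 6.06, 4.53 and 4.43 in the grafts of the first table, above every prostate library (-2.49 to 2.14, 5.03 ± 0.91, limma, adjusted p = 7.44e-04). Gad2 was at 6.22, 8.14, 7.39, 6.61 and -2.0, and was present in prostate at 4.23 to 8.96, so that the difference from prostate was -0.39 ± 1.63 (limma, adjusted p = 0.851). Its call against MEFs (3.77 ± 1.54, limma, adjusted p = 0.0488) was lost under 10 of 15 alternatives, among them those without FS002, FS003, FS005 or FS007 (0.094 to 0.118). In FS023 Gad1 was at 12.98 and Gad2 at 13.07, and in FS022 at 5.82 and 4.39.

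The vesicular transporters and Th were low in FS007 and FS008. Slc17a6, a vesicular glutamate transporter, was at 7.07, 7.72, 7.19, 2.28 and 1.72, higher than in prostate (4.37 ± 1.19, limma, adjusted p = 0.00861). No prostate library showed it above 3 reads, nor did FS008. With prostate taken at its value of 3 reads the graft mean was 8.24-fold higher, with FS008 at its deposited value. Slc32a1, the vesicular transporter of GABA and glycine, was at 5.90, 6.96, 5.49, 1.85 and -1.56, and Th, the tyrosine hydroxylase of catecholamine synthesis, at 5.46, 5.76, 6.60, 1.27 and 1.72. The FS023 values of the 3 genes were 11.12, 11.17 and 8.56. Slc17a7, a second vesicular glutamate transporter outside the 37 genes, was at 12.43 in FS023 and at 1.94 to 4.58 in the other 6 grafts. FS023 had the highest value of the 19 libraries for Gad1, Gad2, Slc17a6, Slc17a7, Slc32a1 and Th.

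Of the 37 members an astrocyte gene, Aqp4, had the largest log2 fold change over MEFs and over prostate. The log2 fold change of Gfap was 7.63 ± 1.76 over MEFs (limma, adjusted p = 0.00279) and 4.30 ± 1.69 over prostate (limma, adjusted p = 0.0479), on a graft mean of 9.98 ± 4.70 (SD, n = 5). With prostate the groups overlapped, and the adjusted p ran from 0.00666 to 0.116 over 13 alternatives, 6 of which lost the call, among them those without FS002, FS003 or FS005 (0.105 to 0.116). Against MEFs it was 0.136 without FS015 to FS018. Aqp4, the water channel of astrocyte end-feet, was at 11.78, 12.61, 10.65, 7.76 and 4.94 in the grafts of the first table, at 11.26 in FS022 and at 14.23 in FS023. Here even FS007 and FS008 were above every prostate library (0.59 to 3.30) and every MEF library (-0.01 to 3.47). The log2 fold change was 7.83 ± 1.26 over MEFs (limma, adjusted p = 2.45e-04) and 8.17 ± 1.22 over prostate (limma, adjusted p = 1.99e-04). The kidney, in which the grafts grow, also makes Aqp4.

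The glutamate transporters Slc1a2 (GLT-1) and Slc1a3 (GLAST) differed in their controls. Slc1a2 was at 10.10, 11.04, 9.05, 4.03 and 6.07 in the grafts of the first table, at 7.98 in FS022 and at 15.38 in FS023, and prostate had -1.43 to 3.18 (6.17 ± 1.27, limma, adjusted p = 0.00169). Slc1a3 was at 10.32, 10.83 and 10.31 in FS002, FS003 and FS005, and at 3.40 and 3.77 in FS007 and FS008, below all prostate (5.52 to 6.22) and MEF (7.93 to 9.95) libraries. It passed in neither comparison. S100b, a calcium-binding protein of astrocytes and Schwann cells, was at 8.89, 9.80, 9.80, 5.81 and 7.25 and was higher than in prostate (3.88 ± 0.67, limma, adjusted p = 5.23e-04), where it was at 3.93 to 4.92. Of 5 further astrocyte and ependymal genes, 4 were higher than in prostate. Mlc1, a membrane protein of astrocytes, was at 9.70, 10.26, 8.76, 2.02 and 1.23, at 9.59 in FS022 and at 13.21 in FS023, and was near or below 3 reads in prostate and MEFs.

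Of the 6 oligodendrocyte and myelin genes, 5 were higher than in MEFs and 5 than in prostate. Mbp, myelin basic protein, was at 12.72, 13.14, 11.26, 10.74 and 9.44, and was tightly held in prostate at 10.03 to 10.13 and at 6.36 to 7.45 in MEFs. It was higher than in MEFs by 4.63 ± 0.58 (limma, adjusted p = 3.79e-05) and than in prostate by 1.38 ± 0.54 (limma, adjusted p = 0.0480), a call lost under 5 of 13 alternatives, among them those without FS002, FS003 or FS005 (0.0682 to 0.117). Cnp, a phosphodiesterase of myelin, was likewise present in all groups, at 7.89 to 11.18 in the grafts of the first table, 8.40 to 9.01 in prostate and 7.97 to 8.37 in MEFs, and passed in neither comparison.

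Myelin of peripheral nerve also holds Mbp, and genes more restricted to oligodendrocytes were therefore read beside it. Mog, myelin oligodendrocyte glycoprotein, was at 7.03, 7.38 and 4.99 in FS002, FS003 and FS005 and at 1.94 and 0.06 in FS007 and FS008, with 1.93 in FS022, which is under its value of 3 reads, and 9.98 in FS023. No prostate or MEF library had Mog above 3 reads, nor did FS007 or FS008. With prostate taken at its value of 3 reads the graft mean was 4.36-fold higher, with FS007 and FS008 at their deposited values. The fitted log2 fold change of Mog over prostate was 3.68 ± 1.35 (limma, adjusted p = 0.0366). Without FS002, FS003 or FS005 its adjusted p was 0.0945, 0.0925 or 0.0731. Mag, a myelin adhesion protein, was at 8.24, 8.74, 6.26, 5.22 and 3.57, all above prostate at 2.35 to 3.42 (3.61 ± 0.82, limma, adjusted p = 0.00310). Olig1 and Olig2, factors of the oligodendrocyte lineage, were at 8.37 and 6.73 in FS002, 9.14 and 7.09 in FS003, and 8.12 and 6.68 in FS005. In FS007 and FS008 both were near or under 3 reads, and in FS023 they were at 11.57 and 9.80. Of 8 other oligodendrocyte genes 7 could be tested, of which 3 were higher and 0 lower than in prostate, and 4 higher and 1 lower than in MEFs.

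Schwann cell genes were followed for comparison, since peripheral glia share genes with oligodendrocytes. Of 8 Schwann cell and satellite glia genes, 1 was higher than in prostate and 0 were lower, and their summed level was at a log2 value of 11.77 to 12.35 in the grafts of the first table, 11.08 to 11.74 in prostate and 11.44 to 11.68 in MEFs.

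Neuroendocrine genes have a source of their own in the prostate. Chga, chromogranin A of dense-core granules, was at 8.35, 9.78, 8.40, 4.58 and 4.21 in the grafts of the first table and at 4.29 to 6.29 in prostate, and did not pass against it (1.86 ± 0.96, limma, adjusted p = 0.117). The difference of Chga from MEFs passed (6.33 ± 1.1, limma, adjusted p = 4.24e-04). No MEF library had it above 3 reads, and with MEFs taken at that value the graft mean was at least 33.8-fold higher. Chgb, chromogranin B, was at 8.46, 9.73, 10.14, 3.16 and 3.06 and was higher than in prostate, at 1.08 to 3.13 (4.58 ± 1.32, limma, adjusted p = 0.0118). Insm1, a zinc-finger factor of neuroendocrine differentiation, was at 6.58, 5.62, 7.82, 4.61 and 2.82, above all prostate libraries (4.43 ± 0.83, limma, adjusted p = 9.47e-04). FS023 had 11.78, 12.35 and 7.34 for these 3 genes. Of 10 other neuroendocrine genes 7 were higher and 1 lower than in prostate.

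Within the 3 grafts that were high in Gfap and Syp, the classes separated further. FS003 had the highest value of the 5 grafts of the first table for all 5 synaptic vesicle genes, all 6 oligodendrocyte and myelin genes, 4 of 5 neurotransmitter genes and 4 of 5 astrocyte genes. FS005 had the highest for 8 of the 9 cytoskeleton and RNA-binding genes and for Otx2 and Neurod1. Shares of all genes that were highest in FS003 or in FS005 are not given here. Against FS005, FS003 was higher by a median of 1.86 on the log2 scale over the myelin genes, 1.96 over the astrocyte genes and 1.24 over the vesicle genes. The median was -1.42 over the cytoskeleton genes, of which 1 of 9 was higher in FS003, and -1.73 over the progenitor factors, of which 0 of 4 were. Over the 16607 genes above the filter the median was 0.03, and 52.3% were higher in FS003. Examples are Mog at 7.38 in FS003 and 4.99 in FS005, and Dcx at 7.61 and 10.29. Each graft is 1 library, and the difference between these 2 has no replicate check.

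FS023 was higher than FS022 in all 37 members, a direction that 55.2% of 16568 genes shared in these 2 libraries. The median difference was 4.71 over the members, from 0.72 for Nefl to 8.69 for Gad2, and 0.15 over those 16568 genes. For 33 members FS023 had the highest value of the 7 grafts, and the exceptions were Otx2 and Insm1, highest in FS005, and Pax6 and Lhx2, highest in FS008. These comparisons with the first table set values of separately normalized tables side by side, and the share of all genes highest in FS023 is not given here. Set against the mean of all 19 libraries, 10188 expressed genes had a median difference of -0.10 in FS022 and of -0.12 in FS023. It was -0.08 in each of FS002, FS003 and FS005, and -0.01 to 0.04 in the other libraries of the first table. FS022 was below FS002, FS003 and FS005 for 25 of the 37 members, within their range for 11 and above it for 1, Nefl. How many of all genes lay below that range in FS022 is not given here. Each class had members below the range and others within it. Of the 5 astrocyte genes Gfap, Aqp4 and S100b were within the range and Slc1a2 and Slc1a3 below it, and of the 6 oligodendrocyte and myelin genes Cnp was within it and 5 were below. The members within it in the other classes were Pax6, Nefm, Snap25, Syt1, Syn2, Th and Insm1.

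**Figure D4:**
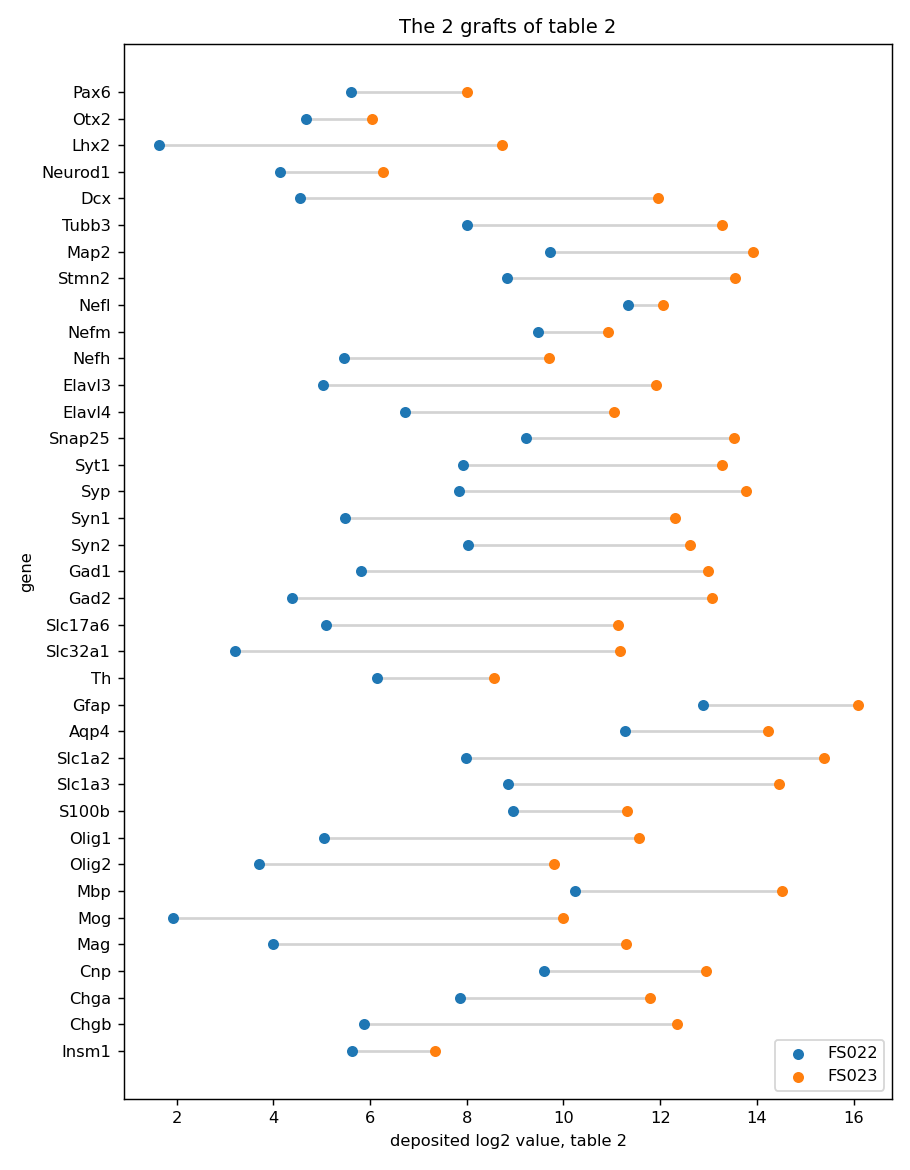
Deposited log2 values of the 37 genes in FS022 (blue) and FS023 (orange), the 2 grafts of the second table, joined by a line for each gene. All 37 orange points lie to the right of the blue ones, by 0.72 for Nefl to 8.69 for Gad2.

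Some of these transcripts were also found in FS007 and FS008. For 14 of the 37 members both lay above the highest prostate library, as they did for 30.4% of the 16607 genes above the filter. These members were Pax6, Lhx2, Stmn2, Nefl, Nefh, Elavl3, Syt1, Gad1, Aqp4, Slc1a2, S100b, Olig2, Mag and Insm1, and Olig2 was below 3 reads in both. For 14 others neither did, and for 9 only 1 of them did. For Syp and Syn2 both FS007 and FS008 lay within or below the prostate values. The count of 14 above prostate is near the share of all genes and is not read as particular to the members.

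Transcripts of other tissues also moved with the grafts. All 8 kidney genes were higher in the grafts than in prostate, and their summed log2 level was 16.35 in FS002, 10.63 in FS003, 17.36 in FS005, 12.78 in FS007, 17.27 in FS008, 15.11 in FS022 and 11.54 in FS023, against 4.90 to 6.98 in prostate. It was high in FS008 and low in FS003 and FS023, which is not the order of Gfap. The summed level of 8 skeletal muscle genes had more of that order, at 16.35, 15.49, 15.62, 12.13 and 10.43 in the grafts of the first table, and 16.30 in FS022 and 13.22 in FS023. Pou5f1, a pluripotency factor, was at 9.79, 4.52, 8.96, 1.55 and 0.81 and at 0.02 in FS022 and 2.87 in FS023, and in FS007, FS008 and FS022 it was below 3 reads. The summed level of 6 pluripotency genes ranged from 4.23 to 11.23 in grafts of the first table, with 2 to 6 of the 6 above 3 reads. Of 6 prostate secretion genes, 0 were higher and 6 lower in the grafts than in prostate. The part of these tissues in the neural values was not tested.

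Between the 2 control groups, members passed in both directions. Of the 17 members over the filter in prostate or MEFs, 6 were higher in prostate, Syp, Syn2, Gad2, Gfap, Mbp and Chga, and 5 were lower, Lhx2, Tubb3, Elavl4, Slc1a2 and Slc1a3, where 27.8% of the 14560 genes tested were higher and 20.5% lower. The remaining 6 did not pass and 20 members were too low to test. These counts are near the shares of all genes and are not read as particular to the members. Mbp differed most surely, by 3.25 ± 0.17 (limma, adjusted p = 1.47e-09), and Lhx2 by -6.58 ± 0.77 (adjusted p = 3.49e-06). Rbfox3, a neuronal splicing factor outside the 37 genes, was at 8.86 to 9.66 in prostate and at 4.54 to 6.79 in the grafts of the first table. It was the 1 gene of the 12 in the list of other neurons with less in the grafts than in prostate, while 7 had more.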

How the data were processed

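RNA-seq libraries of 7 renal grafts, 6 prostates and 6 MEF cultures were used, with groups taken from the sample labels. Per the labels the reads were demultiplexed with bcl2fastq 1.8.4 and processed with TopHat, Cufflinks and DESeq on mm9, without their order or settings being given. The authors deposited log2 values of DESeq-normalized counts, with 17 samples in the first table and 2 in the second. The transformation is not given in the sources used here. Between log2 values of 11.5 and 15 all values were whole reads times a constant of the sample (within 0.05 reads, after subtraction of a constant of 1.611), which gave the depth of each library. Lower values carry added scatter (SD 1.07 to 1.12 where no read is expected), and whole reads were not recovered for them, so no count model was used.

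The 37 genes and all lists of other genes were chosen with earlier results of these data known. All members are reported. Of the other lists, counts or summed levels and a few of the most abundant genes in any graft are given, and genes named beyond that (Sox1, Neurog2, Hes5, Pou3f2, Crx, Slc17a7, Rbfox3, Rest, Pbsn and Elp4) were chosen after their values were seen. Some genes of these lists are not reported here.

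For groups of the first table, limma (version 3.58.1, R 4.3.3, moderated statistics with a variance trend) was run on the deposited log2 values, with no pseudocount, over all genes whose linear mean reached 10. A gene passed at a Benjamini-Hochberg adjusted p under 0.05 over all genes tested and a log2 fold change of 1 or more in size. It was also run on simulated data with independent normal values, 1 spread per gene shared by both groups, and 200 genes changed by log2 fold changes of at most 3 in size. This recovered 138 in grafts against MEFs, 143 in grafts against prostate and 185 in prostate against MEFs, with 8, 3 and 4 false calls. The simulation did not copy the unequal spread of the groups or the close MEF pairs. These counts therefore do not give the error rate of the real comparisons. No grafts were grouped by their values for a test. The value of 3 reads was the lower limit of what depth can show. Promoter sequences are from RefSeq on GRCm38.p6, and gene positions and exon overlaps from GENCODE M1 on mm9. Alternatives changed the pseudocount, the low-value filter, the scaling, the fit and the samples. Other calculations and figures were made in Python 3.11.15 (pandas 2.3.3, numpy 2.4.6, matplotlib 3.10.9).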

Additional observations from a re-analysis of the deposited data

Results flagged for a closer look

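Over the 37 genes in the grafts of the first table, prostate and MEFs, 5 of 111 sets of values held a library far from the rest of its group by Dixon's criterion, and chance gives about 5.55, or 1 in 20 sets. Gad2 was at a log2 value of -2.0 in graft FS008, against 6.22 to 8.14 in the other 4 grafts. Gad2 in prostate FS009 was at 8.96, against 4.23 to 5.46 in the other 5 prostate libraries. Aqp4 was at 3.3 in FS009, against 0.59 to 1.60. Th was at 1.82 in prostate FS014, against 2.95 to 3.61, and Slc1a2 was at -1.43 in prostate FS011, against 1.81 to 3.18, values at or below 3 reads in these 2 libraries. In FS009, the kidney genes Kap and Slc34a1 were also at 6.12 and 4.32, against at most 0.37 and 2.24 in the other 5 prostate libraries, and their part in the values of Gad2 and Aqp4 was not tested.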

How the results depend on the processing

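Of the count of members higher in grafts than in MEFs, 29, the value was 19 with a linear mean of at least 50 (27 members tested), 19 with quantile normalization, 11 without FS015 to FS018 and 19 with close MEF pairs averaged, an alternative chosen after seeing the data, and 23 to 31 when 1 graft was left out. Of the 11 members that passed between prostate and MEFs, a count of 17 was found with no filter on low values, where more members are tested, and of 5 with a linear mean of at least 50, where fewer are. Against prostate, the 26 members ran from 18 to 28 under the other alternatives and from 20 to 30 when 1 graft was left out. The number of members above 3 reads in each graft stayed within 1.5 times under a limit of 10 reads and under 1 fixed limit.

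The members whose direction reversed had not passed. Against MEFs the reversed log2 fold changes were 0.211 for Lhx2, -0.266 for Stmn2 and -0.554 for Syn1 without FS015 to FS018, and -1.313 for Syn1 with quantile normalization. With 1 graft left out at a time the values ran from -1.108 to 0.382 for Lhx2, from -1.178 to 0.294 for Tubb3, from -0.769 to 0.075 for Map2, from -0.471 to 0.804 for Syn1 and from -1.67 to 0.186 for Slc1a3. Against prostate they were -0.662 for Syn2 and -0.238 for Th with quantile normalization and 0.041 for Gad2 with a pseudocount of 1. With 1 graft left out they ran from -0.19 to 0.654 for Map2, from -0.33 to 0.854 for Syn2 and from -1.11 to 1.424 for Gad2. Between prostate and MEFs, Syt1 was at 0.597 without FS015 to FS018 and S100b at -0.768 with quantile normalization. The cause was not tested. No paired analysis was possible because the labels give the samples no replicate numbers shared between groups.

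Depth limits what can be said of the members at or below 3 reads, most of them in prostate, MEFs, FS007 and FS008, and FS022 with 6629305 reads on genes has the highest such limit.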

Other observations

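Choroid plexus, endocrine and other neuronal genes that the comparisons above did not describe were also followed. All 6 choroid plexus genes were higher in the grafts of the first table than in MEFs and 4 of 6 than in prostate. Ttr, which encodes a thyroid hormone carrier made by choroid plexus and by liver, was at a log2 value of 8.56, 8.95, 9.01, 5.48 and 9.73 in FS002, FS003, FS005, FS007 and FS008, and at 9.29 in FS022 and 8.05 in FS023. Kl, which kidney and choroid plexus both make, was at 10.83, 5.21, 11.59, 7.30 and 12.31, an order like that of the kidney gene Kap at 15.84, 9.77, 17, 12.34 and 16.64.

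Of 8 hormone genes of pancreas and gut, 5 could be tested and 4 were higher than in MEFs. Ghrl, which encodes ghrelin, was at 9.52, 11.09, 7.97, 3.55 and 1.96 in the grafts of the first table, and Sst, which encodes somatostatin and is made by gut, pancreas and neurons, at 7.43, 9.0, 7.34, 1.49 and 0.64. FS003 had the highest Ghrl of all 19 libraries and FS023, at 10.49, the highest Sst. Of 8 peripheral and enteric neuron genes 4 were higher than in MEFs and 2 than in prostate. In this list the genes of FS023 went both ways. Hand2 was at 3.46 there, the lowest of the 19 libraries, while Ret at 9.50 and Scn9a at 8.42 were the highest. Hand2 was also at 7.11 to 7.63 in MEFs and 5.63 to 6.46 in prostate, so it is not specific to neurons in these samples. In FS022 Prph, the peripheral intermediate filament, was at 8.89, the highest of the 19, against 5.81 in FS023.

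Camk2a, a kinase of mature forebrain neurons, was at 7.97, 8.36, 7.61, 3.24 and 2.92 in the grafts of the first table, at 5.75 in FS022 and at 12.80 in FS023, and MEFs had it at 5.21 to 7.03. The genes named here were chosen after their values were seen, and none of these values was tested against a cause.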
